A study of Zea mays with 15 samples.

Results

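The maize genes hsp101, Hsp70, hsp82, hsp26 and hsp18f encode heat shock proteins, the chaperones that keep other proteins folded. These 5 genes were chosen by their gene identifiers, to stand for the HSP100, HSP70, HSP90 and small heat shock protein families, from a table of 39145 genes. All 5 passed the filter on low counts, among 23899 genes tested. Each has 1 transcript in the table, and 100% of the reads counted for each were unique to that transcript.

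Transcripts were counted in the growing base of leaf 4 of the inbred line B73, cut into 10-mm segments 3 days after the leaf emerged. Zone 1 is the first centimetre from the base, zone 2 the next and zone 3 the one beyond it. All plants grew outdoors under plastic sheets. The control sheet removed most solar UV-B (0.35 W/m2 passed at noon) and the other let it through (1.5 W/m2, the UV-B group). UV-A averaged 8 W/m2 in each group. Of 15 libraries, 14 were used: 3, 2 and 3 of control zones 1, 2 and 3, and 1, 3 and 2 of UV-B zones 1, 2 and 3. UV-B zone 3 replicate 1 held 728 reads and was left out. The others held 1673416 to 19221143 reads, and the labels do not say how many plants a library holds. The segments mix all cell types of the leaf base, so that fewer cells of a type and less RNA per cell cannot be told apart. The zone labels fitted 8 genes that mark position: 4 division genes were lower and 4 genes of photosynthesis or water transport higher in control zone 3 than in zone 1, each called by the test used below.

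Heat shock proteins bind proteins that have unfolded or clumped and help them to refold. In plants, heat shock transcription factors switch many of their genes on within minutes of warming, while other members of the same families are made at all temperatures to fold newly made proteins. HSP101 pulls proteins out of aggregates, working with HSP70 and with small heat shock proteins that hold unfolded proteins in a soluble state. HSP90 completes the folding of regulators such as kinases and receptors.

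The hexameric disaggregase hsp101 (GRMZM2G360681) lies on chromosome 6 from 160816569 to 160820239. Coordinates here are those of the deposited table, whose build is not named, and span the whole transcript. Hsp70 (GRMZM2G310431), an ATP-driven folding chaperone, lies on chromosome 8 from 168506538 to 168509902. The small heat shock protein gene hsp18f (GRMZM2G083810) lies on chromosome 3 from 8887554 to 8888747, and hsp26 (GRMZM2G149647), a small heat shock protein of chloroplasts, on chromosome 1 from 33464177 to 33465385. The annotation also lists hsp26 under the name hsp18. The HSP90 gene hsp82 (GRMZM5G833699) lies on chromosome 10 from 93697765 to 93700740.

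Per transcript length, Hsp70 was the most abundant of the 5, with a median of 44.2 RPKM over the 14 libraries (range 4.28 to 97.7). RPKM are reads per kilobase of transcript and 1000000 reads of the library. The median was 8.95 RPKM for hsp18f (1.91 to 33.8) and 5.89 RPKM for hsp101 (0.710 to 19.9). It was 0.401 RPKM for hsp26 (0 to 1.28) and 0.268 RPKM for hsp82 (0 to 0.523). Neighbours in this order had overlapping ranges. Within single libraries the order of neighbours held in 13 of 14 libraries for each of the 3 higher steps, and in 11 of 14 for hsp26 above hsp82.

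Levels below are CPM, the reads of a gene per 1000000 reads of its library. For hsp101, replicates 1, 2 and 3 of control zone 1 had 7.09, 52.6 and 67.5 CPM, replicates 2 and 3 of control zone 2 had 16.4 and 36.9 CPM, and replicates 1, 2 and 3 of control zone 3 had 2.49, 20.6 and 25.6 CPM. Under UV-B it had 4.99 CPM in replicate 3 of zone 1, 18.5, 22.1 and 3.99 CPM in replicates 1, 2 and 3 of zone 2, and 21.2 and 2.99 CPM in replicates 2 and 3 of zone 3. Control replicate 1 and UV-B replicate 3 were low in every zone sampled. Their 5 libraries, at 2.49 to 7.09 CPM, did not overlap the other 9, at 16.4 to 67.5 CPM, whichever zone these came from. The same order was found for 0.678% of the genes tested. These sets were picked out after the values were seen, so this share is a description and no measure of chance.

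Hsp70 was split in the same way. It had 20.9, 255 and 283 CPM in replicates 1, 2 and 3 of control zone 1, 138 and 165 CPM in replicates 2 and 3 of control zone 2, and 17.4, 127 and 142 CPM in replicates 1, 2 and 3 of control zone 3. Under UV-B the level was 11.9 CPM in replicate 3 of zone 1, 115, 105 and 21.2 CPM in replicates 1, 2 and 3 of zone 2, and 134 and 32.9 CPM in replicates 2 and 3 of zone 3. The libraries of control replicate 1 and UV-B replicate 3 lay at 11.9 to 32.9 CPM and all others at 105 to 283 CPM. The lowest level came from the deepest library (19221143 reads), in which it rested on 229 reads.

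For hsp18f, control zone 1 had 13.99, 43.7 and 33.1 CPM in replicates 1, 2 and 3, control zone 2 had 13.1 and 7.40 CPM in replicates 2 and 3, and control zone 3 had 5.48, 18.5 and 10.9 CPM in replicates 1, 2 and 3. Under UV-B the levels were 5.25 CPM in replicate 3 of zone 1, 23.8, 8.71 and 2.66 CPM in replicates 1, 2 and 3 of zone 2, and 18.9 and 2.99 CPM in replicates 2 and 3 of zone 3. Control replicate 1 and UV-B replicate 3 were again lowest within each zone. Across zones their 5 libraries (2.66 to 13.99 CPM) overlapped the other 9 (7.40 to 43.7 CPM).

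The last pair of genes was near the detection limit. In control zones 1, 2 and 3, hsp82 had 0.538, 1.00 and 0.778 CPM (replicates 1, 2 and 3), 0.657 and 1.02 CPM (replicates 2 and 3), and 0, 1.56 and 0.643 CPM (replicates 1, 2 and 3). Under UV-B it had 1.40 CPM in zone 1, 0.845, 1.01 and 0.582 CPM in zone 2, and 1.07 and 0 CPM in zone 3. These values rest on 119 reads over 14 libraries, and the groups overlapped in zones 2 and 3, while the single UV-B library of zone 1 lay above its 3 controls, as it did for 34.0% of the genes tested. For the 0 values, 3 reads would equal 1.49 CPM in control zone 3 replicate 1 and 1.79 CPM in UV-B zone 3 replicate 3. Their 95% Poisson intervals reach 1.84 and 2.20 CPM.

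In control, hsp26 had 0.269, 0.670 and 0.354 CPM in zone 1 (replicates 1, 2 and 3), 0.219 and 0.638 CPM in zone 2 (replicates 2 and 3), and 0.498, 0.389 and 0.482 CPM in zone 3 (replicates 1, 2 and 3). Under UV-B it had 0.572 CPM in zone 1, 1.37, 0.936 and 1.50 CPM in replicates 1, 2 and 3 of zone 2, and 0.429 and 0 CPM in zone 3. All 3 UV-B libraries of zone 2 lay above both control libraries of that zone, as for 8.43% of the genes tested, and in the other zones the groups overlapped. The gene had 89 reads in all. Intervals and limits of this kind cover counting error only.

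**Figure D1:**
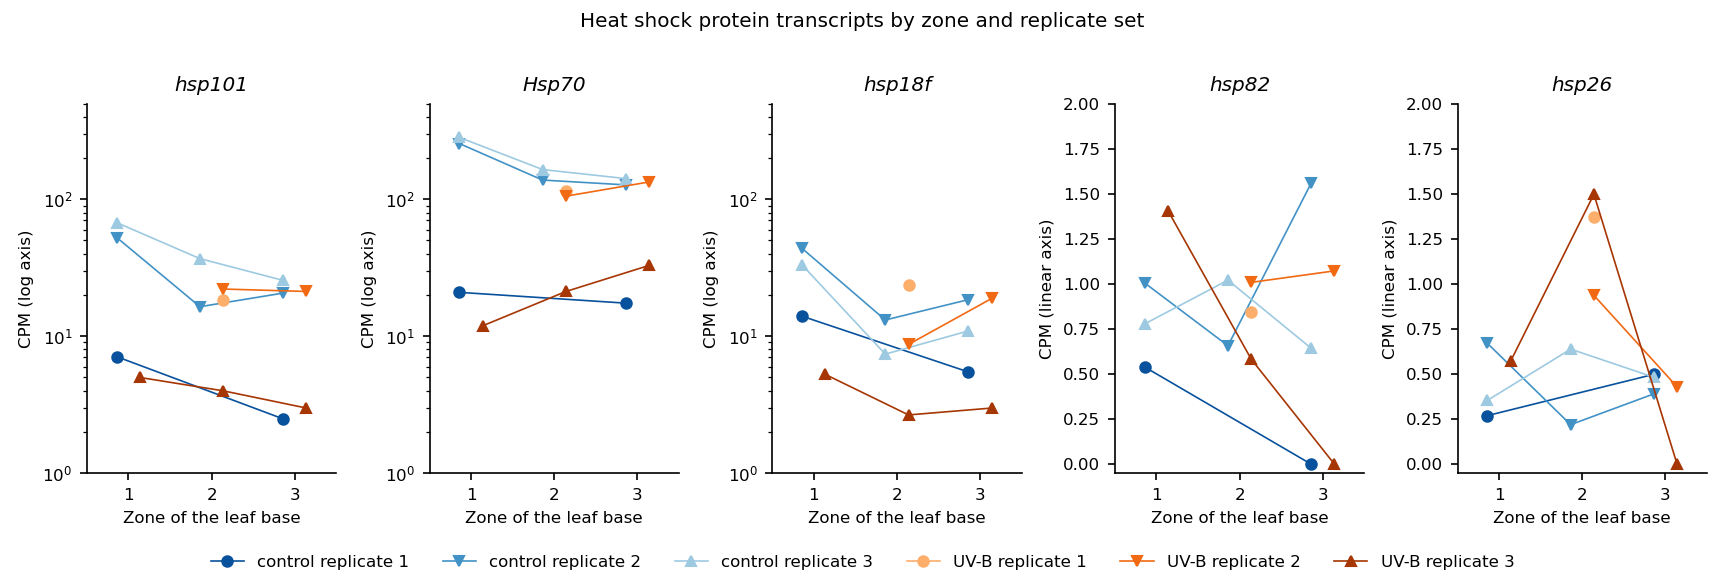
Level (CPM) of the 5 genes in zones 1, 2 and 3 of the leaf base; each point is 1 library, lines join libraries of 1 replicate set, blue is control and orange UV-B. The axis is logarithmic for hsp101, Hsp70 and hsp18f and linear for hsp82 and hsp26. Within each zone, control replicate 1 and UV-B replicate 3 lie lowest for the first 3 genes. Hsp70 lies at 11.9 to 32.9 CPM in these sets against 105 to 283 CPM in the other libraries, while hsp18f overlaps across zones.

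Whether replicates of 1 treatment differed was tested over sets of libraries that share treatment and replicate number. Libraries of 1 set also share the last number of their title (3, 4 and 7 for control replicates 1, 2 and 3, and 7, 8 and 9 for UV-B), which the labels do not explain. The labels say that the experiment was done 3 times in the summer. A model of zone and set was fitted to all genes with edgeR's quasi-likelihood test, and a gene was called at a Benjamini-Hochberg adjusted p under 0.05. In control, 3 of the 5 genes differed among the 3 sets, against 9.26% of the genes tested. Under UV-B the same 3 genes differed, against 18.5% of the genes tested. The genes and this comparison were chosen with earlier results of these data known. Shares set beside them here and below are therefore descriptions and no measure of chance.

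The 3 genes were hsp101, Hsp70 and hsp18f. In control they were lowest in replicate 1, a pattern called for 3.06% of the genes tested, and under UV-B in replicate 3, a pattern called for 9.14%. Between the lowest and the highest set, adjusted for zone, hsp101 differed 9.89-fold in control (edgeR adjusted p = 1.90e-05) and 8.49-fold under UV-B (adjusted p = 7.68e-06). Hsp70 differed 10.9-fold in control (adjusted p = 0.000285) and 8.06-fold under UV-B (adjusted p = 0.000193). Among 13820 genes with a mean of at least 10 CPM, 0.384% had a range over control sets as large as that of hsp101 and 0.304% one as large as that of Hsp70. Under UV-B these shares were 1.50% and 1.57%.

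For hsp18f the ranges were 3.24-fold in control (edgeR adjusted p = 0.00579) and 15.3-fold under UV-B (adjusted p = 8.31e-06). Ranges as large were found for 2.12% and 0.745% of the 13820 genes. Under UV-B hsp18f and Hsp70 were highest in replicate 1, which is a single library of zone 2, whereas hsp101 was highest in replicate 2. In that zone, replicates 1 and 3 had 23.8 and 2.66 CPM of hsp18f and 115 and 21.2 CPM of Hsp70. These ratios are smaller than the fitted ranges. In control, hsp82 and hsp26 had ranges of 1.53 and 0.49 on the log2 scale (adjusted p = 0.502 and 0.937), and under UV-B 0.67 and 0.72 (adjusted p = 0.786 and 0.807), at read numbers that leave wide errors.

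Differences between pairs of sets showed where the split lay. For hsp101, control replicates 2 and 3 exceeded replicate 1 by 2.73 ± 0.28 and 3.31 ± 0.29 on the log2 scale (estimate ± SE, edgeR adjusted p = 3.79e-05 and 8.81e-06). Control replicates 3 and 2 differed by 0.57 ± 0.19 (adjusted p = 0.0719). UV-B replicate 3 was below replicates 1 and 2 by -2.88 ± 0.30 and -3.09 ± 0.26 (adjusted p = 4.49e-05 and 3.26e-06), while UV-B replicates 2 and 1 differed by 0.21 ± 0.30 (adjusted p = 0.754).

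Hsp70 gave 3.27 ± 0.40 and 3.45 ± 0.41 for control replicates 2 and 3 over replicate 1 (edgeR adjusted p = 0.000167 and 0.000125) and 0.18 ± 0.29 between replicates 3 and 2 (adjusted p = 0.743). Under UV-B, replicate 3 differed from replicates 1 and 2 by -3.01 ± 0.42 and -2.91 ± 0.36 (adjusted p = 0.000504 and 0.000109). For hsp18f, control replicates 2 and 3 exceeded replicate 1 by 1.70 ± 0.29 and 1.08 ± 0.28 (adjusted p = 0.00252 and 0.0481). UV-B replicate 3 differed from replicates 1 and 2 by -3.93 ± 0.33 and -2.62 ± 0.30 (adjusted p = 5.99e-06 and 5.25e-05), and replicates 2 and 1 differed by -1.31 ± 0.33 (adjusted p = 0.0681).

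The calls rest on the low set. Without control replicate 1, the 3 calls in control ended (edgeR adjusted p = 0.0784 for hsp101, 0.755 for Hsp70 and 0.105 for hsp18f). Without UV-B replicate 3, those of hsp101 and Hsp70 under UV-B ended (adjusted p = 0.760 and 0.879), and the call of hsp18f then rests on replicate 1, a single library whose spread is taken from the others (adjusted p = 0.0382). For hsp18f the control call also ended without control zone 1 replicate 1 (adjusted p = 0.0516) and without control replicate 2 (0.0720).

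The 3 listed genes of the circadian clock moved with this split. These were gigz1a and gigz1b, homologs of GIGANTEA of Arabidopsis, and PRR59, a pseudo-response regulator, genes whose Arabidopsis counterparts cycle over the day. The clock genes CCA1, LHY and TOC1 were not on the list. All 3 of 3 were called among control sets and among UV-B sets, against 9.26% and 18.5% of the genes tested. They were highest in control replicate 1 and UV-B replicate 3. Their summed level was 401 to 810 CPM in the 5 libraries of these sets and 47.2 to 173 CPM in the other 9, and none was at 0. In control zone 1, gigz1a had 550, 87.8 and 140 CPM in replicates 1, 2 and 3. The part of the clock in the levels of the heat shock genes was not tested. The 5 heat shock genes together summed to 24.1 to 42.8 CPM in the first 5 libraries and to 138 to 385 CPM in the other 9. Hsp70 gave the largest part of this sum. Taken singly, hsp18f, hsp82 and hsp26 overlapped between these groups of libraries, hsp82 at 0 to 1.40 CPM against 0.643 to 1.56 CPM. No share over all genes was computed for the summed levels.

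Other chaperone genes were taken from lists filled by gene symbol. For comparison with the counts below, 9.26% of the genes tested were called among control sets and 18.5% among UV-B sets. Those called with control replicate 1 lowest were 3.06%, and those called with UV-B replicate 3 lowest 9.14%. In the HSP70 family, 3 of the 4 other members were called among control sets and 3 of 4 among UV-B sets, each lowest in the same sets as Hsp70. These were bip1 and bip2, luminal binding proteins of the endoplasmic reticulum, and hsp70-5. In control zone 1, bip1 had 153, 284 and 380 CPM and hsp70-5 had 5.20, 27.3 and 42.4 CPM in replicates 1, 2 and 3. The most abundant member, hsp70-4, had a mean of 1664 CPM and was not called in either (log2 range 0.52 in control and 0.65 under UV-B, edgeR adjusted p = 0.246 and 0.0985).

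Both other HSP90 genes were called in control and under UV-B, HSP90-2 (mean 671 CPM) and HSP90-1 (mean 157 CPM). HSP90-1 had 93.2, 514 and 276 CPM in replicates 1, 2 and 3 of control zone 1, and 33.6 CPM in the UV-B library of that zone. Its sets differed by up to 6.18-fold in control (edgeR adjusted p = 2.28e-05) and 12.5-fold under UV-B (adjusted p = 5.71e-07). Both were lowest in control replicate 1 and in UV-B replicate 3.

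Of the 4 other small heat shock protein genes, 1 was called in control and under UV-B, hsp22, a small heat shock protein of mitochondria. It had 3.05, 48.7 and 49.0 CPM in replicates 1, 2 and 3 of control zone 1, and 4.48, 116 and 66.2 CPM in those of control zone 3. Under UV-B it had 98.1, 54.4 and 3.08 CPM in replicates 1, 2 and 3 of zone 2. The fitted fold range over sets, adjusted for zone, was 20.4 in control and 51.7 under UV-B (edgeR adjusted p = 1.90e-05 and 5.71e-07). It was wider than that of any of the 5 genes above, and under UV-B wider than the ratio measured in zone 2. The levels of hsp18c, GRMZM2G158232 and hsp18a (means of 5.995, 2.59 and 1.93 CPM) gave no call.

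Chaperonins, which fold proteins inside a closed chamber, were called in 1 of 4 cases in control and in 4 of 4 under UV-B, where 3 were lowest in replicate 3. The co-chaperone of HSP90, SGT1, was called in both, with ranges of 1.17 and 1.11 on the log2 scale (edgeR adjusted p = 0.00302 and 0.00233). In the endoplasmic reticulum folding list, 4 of 17 genes were called in control (9.26% of all genes), 3 of them lowest in replicate 1. Under UV-B 4 of 17 were called, near the 18.5% of all genes, 3 of them lowest in replicate 3. The most abundant, the calreticulin gene crt2, had 464, 1032 and 1052 CPM in replicates 1, 2 and 3 of control zone 1. Medians of the log2 range over control sets were 1.56 for the HSP70 family, 1.56 for the HSP90 family, 1.33 for small heat shock proteins and 0.29 for the endoplasmic reticulum list, against 0.51 for all genes tested. Under UV-B these medians were 1.68, 1.96, 2.75 and 0.43, against 0.73.

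Of 12 heat shock factor genes, the regulators of the response, 9 were tested, and 1 of 9 was called in control and 2 of 9 under UV-B, shares near those of all genes (9.26% and 18.5%). The most abundant, Hsf01, had a mean of 77.7 CPM and log2 ranges of 0.21 and 0.44 (edgeR adjusted p = 0.652 and 0.322). HSF6, named here after its values were seen, was the factor called in both and ran the other way. It had 6.82, 0.558 and 0.424 CPM in replicates 1, 2 and 3 of control zone 1 and 6.57 CPM in UV-B zone 2 replicate 3, against 0.317 and 0.288 CPM in UV-B zone 2 replicates 1 and 2 (adjusted p = 0.000589 in control and 0.000721 under UV-B).

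**Figure D2:**
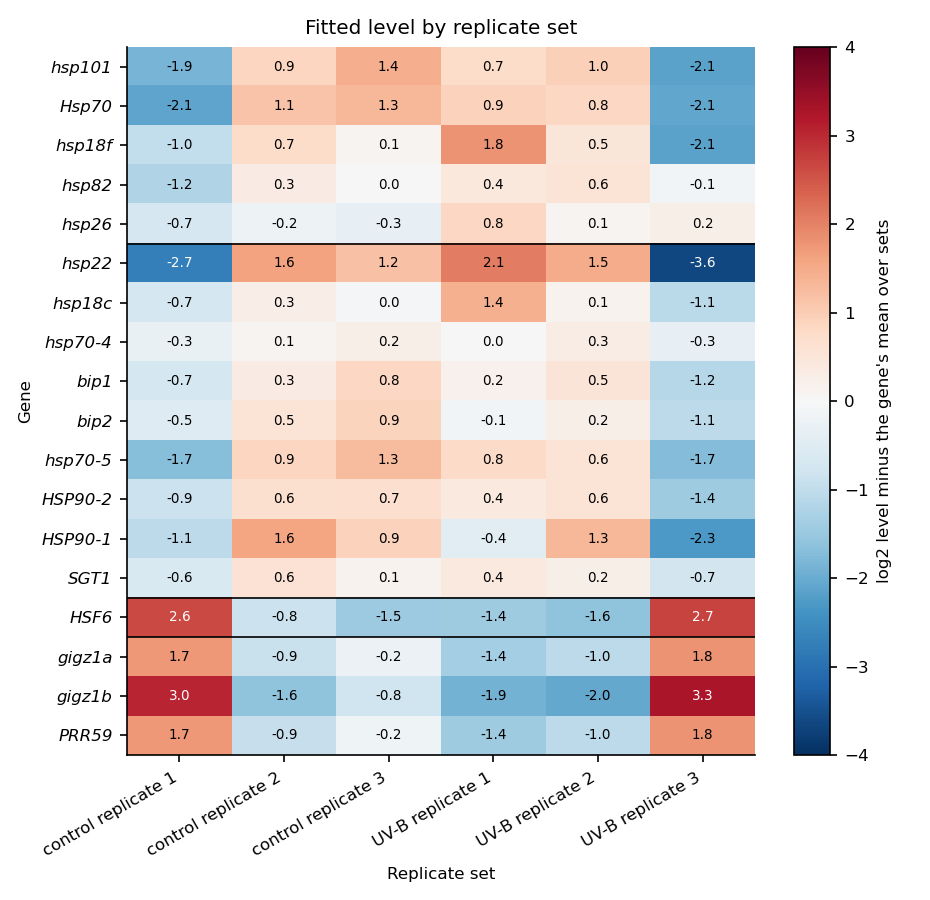
Fitted level of each gene in the 6 replicate sets, adjusted for zone, as log2 units from the gene's mean over sets; blue is lower and red higher. Rows are the 5 genes, a selection of other chaperone genes, HSF6 and the 3 listed clock genes. Chaperonins, endoplasmic reticulum folding genes, other heat shock factors, hsp18a and GRMZM2G158232 are not shown, and their values lie on both sides of 0. Of the chaperone genes shown, most are blue in control replicate 1 and UV-B replicate 3, hsp22 most of all. In these sets hsp70-4 is near 0 and the clock genes are red.

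Along the leaf, the question was whether these genes change as cells pass from division into expansion. Fitted without the replicate sets, 0 of the 5 genes were called between control zones 3 and 1 (51.3% of genes called), between zones 2 and 1 (8.33%) or between zones 3 and 2 (13.3%). The differences between zones 3 and 1 were -1.21 ± 0.91 for hsp101, -0.84 ± 0.93 for Hsp70 and -1.23 ± 0.79 for hsp18f (log2 ± SE, edgeR adjusted p = 0.280, 0.469 and 0.208). The spread between replicates was as large as these differences.

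Zones were also compared within 1 set. The ratios of zone 1 to zone 3 in control replicates 1, 2 and 3 were 2.85, 2.55 and 2.64 for hsp101, 2.55, 2.36 and 3.03 for hsp18f and 1.199, 2.00 and 2.00 for Hsp70. Zone 1 thus had the higher level in 3 of 3 control sets for each of these genes. The share of all genes with this order was not counted. For hsp26 the ratios were 0.540, 1.72 and 0.734 in control replicates 1, 2 and 3. For hsp82 they were 0.645 and 1.21 in replicates 2 and 3, and zone 3 of replicate 1 had 0 reads. In control replicate 1, the 95% Poisson intervals of zones 1 and 3 overlapped for Hsp70 (18.3 to 23.8 and 12.1 to 24.2 CPM) and at their edges for hsp101 (5.61 to 8.83 and 0.809 to 5.81 CPM, the latter from 5 reads).

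Since libraries of 1 control set deviated together, the comparison was repeated with the set as a block. Then hsp101, Hsp70 and hsp18f were each lower in zone 3 than in zone 1, against 62.6% of genes called and 32.0% called lower. The log2 differences were -1.29 for hsp101 (95% interval -1.73 to -0.84, edgeR adjusted p = 0.000108), -0.74 for Hsp70 (-1.09 to -0.40, adjusted p = 0.00112) and -1.31 for hsp18f (-1.78 to -0.84, adjusted p = 0.000165). With so many genes called, 3 of 5 is a share close to that of all genes.

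With the block, zone 2 was below zone 1 by a log2 difference of -1.17 for hsp101 (95% interval -1.63 to -0.70, edgeR adjusted p = 0.00201), -0.69 for Hsp70 (-1.07 to -0.32, adjusted p = 0.0130) and -1.88 for hsp18f (-2.42 to -1.34, adjusted p = 0.000181). In this comparison 19.7% of genes were called and 7.54% were lower. Between zones 3 and 2, 0 of the 5 genes were called, against 29.4% of genes. The intervals there ran from -0.61 to 0.36 for hsp101, from -0.43 to 0.33 for Hsp70 and from 0.00 to 1.14 for hsp18f. Zone 2 was sampled in control replicates 2 and 3 alone. From zone 2 to zone 3, hsp101 went from 16.4 to 20.6 CPM in replicate 2 and from 36.9 to 25.6 CPM in replicate 3. Without the block, both steps of hsp101 were -0.61 on the log2 scale.

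Under UV-B, zone 1 was sampled in replicate 3 alone. In that set hsp101 had 4.99, 3.99 and 2.99 CPM in zones 1, 2 and 3, with zone 1 highest as in the control sets but overlapping Poisson intervals (4.05 to 6.10 CPM in zone 1 and 0.97 to 6.97 CPM in zone 3). Hsp70 had 11.9, 21.2 and 32.9 CPM, with zone 1 lowest. No test of this difference in direction was made, since it rests on 1 set.

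Among other chaperone families the called genes went in both directions. Over all genes with the block, 30.6% were called higher and 32.0% lower in zone 3 than in zone 1, and several of the counts below lie near these shares. With the block, the HSP70 family had 3 of 5 members lower and 0 higher in zone 3 than in zone 1, the HSP90 family 2 of 3 lower, and chaperonins 3 of 4 lower and 1 higher. The plastid co-chaperonin CHL-CPN10 rose by 1.74 ± 0.17 (log2 ± SE, edgeR adjusted p = 1.21e-06), while CPN60II was at -2.12 ± 0.19 (adjusted p = 6.60e-07). Of 6 small heat shock protein genes, 3 were higher and 1, hsp18f, lower. The largest rise was that of hsp18c (4.83 ± 0.64, adjusted p = 2.02e-05), from 0.807, 0.112 and 0.707 CPM in replicates 1, 2 and 3 of control zone 1 to 5.98, 20.6 and 15.9 CPM in control zone 3. Among genes of endoplasmic reticulum folding 8 of 17 were higher and 2 lower, with crt2 at 0.94 ± 0.15 (adjusted p = 0.000120).

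**Figure D3:**
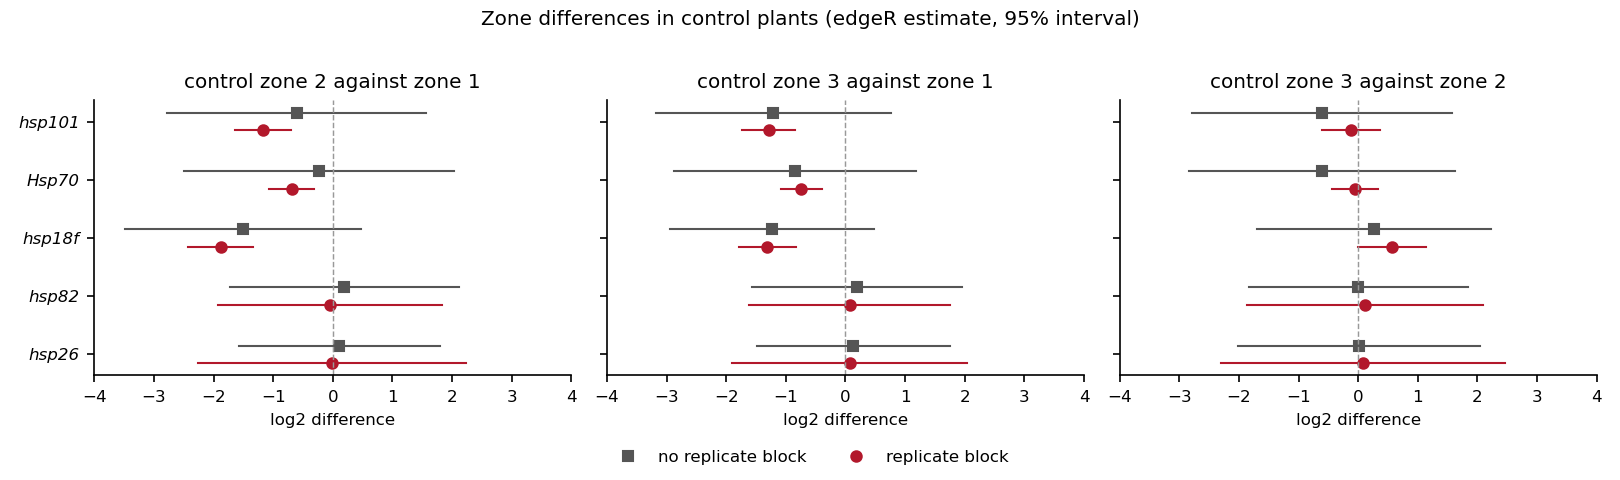
Log2 difference between zones of control leaves for each gene, with 95% intervals, fitted without the replicate sets (grey squares) and with them as a block (red circles). With the block, the intervals of hsp101, Hsp70 and hsp18f lie below 0 for zone 2 against zone 1 and zone 3 against zone 1; without it every interval spans 0.

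The UV-B comparison asked whether solar UV-B changes these transcripts in the growth zone. Over the 3 zones together, 0 of the 5 genes were called, against 0.0293% of the genes tested (7 genes). The log2 differences, UV-B minus control, were -1.07 for hsp101 (95% interval -2.56 to 0.42, edgeR adjusted p = 0.636) and -1.04 for Hsp70 (-2.66 to 0.58, adjusted p = 0.670). They were -0.40 for hsp18f (-1.78 to 0.98, adjusted p = 0.872), 0.14 for hsp82 (-0.95 to 1.24, adjusted p = 0.946) and 0.58 for hsp26 (-0.51 to 1.66, adjusted p = 0.730). The intervals hold both no change and changes of over 4-fold for hsp101 and Hsp70, so that a moderate effect of UV-B was not detectable with these libraries. This fit took the 14 libraries as independent although those of 1 set deviated together, so its intervals are likely too narrow. With the correlation within sets (0.472), limma-voom called 1 gene and 0 of the 5.

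The negative values rest on UV-B replicate 3. Without that set, the log2 difference was -0.06 for hsp101, 0.01 for Hsp70 and 0.73 for hsp18f (edgeR adjusted p = 0.986, 0.999 and 0.593). Without UV-B replicate 2 it was -2.08, -1.96 and -0.98, and without control replicate 1 it was -1.34, -1.36 and -0.57. None of the 5 genes was called when any 1 of the 6 sets was left out.

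In zone 1 the single UV-B library, part of replicate 3, lay below all 3 control libraries for hsp101, Hsp70 and hsp18f, as it did for 14.1% of the genes tested. It had 4.99 CPM of hsp101 (95% Poisson interval 4.05 to 6.10), 11.9 CPM of Hsp70 (10.4 to 13.6) and 5.25 CPM of hsp18f (4.28 to 6.38). The fitted differences from the control mean were -3.19, -4.07 and -2.62 on the log2 scale, with no replicate to test them. The nearest control library was replicate 1 for each gene, at 7.09, 20.9 and 13.99 CPM.

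In zone 2, 0 of the 5 genes were called, and the call rate over all genes in edgeR was 0%, with 939 genes below 0.05 before adjustment, 2 called by DESeq2 and 1 by limma-voom. The level of hsp101 was 14.9 ± 9.58 CPM under UV-B (SD, n = 3) against 26.6 ± 14.5 in control (n = 2). For Hsp70 it was 80.4 ± 51.5 against 151 ± 18.9 CPM. For hsp26, which did not overlap between the groups, the mean was 1.27 ± 0.295 against 0.428 ± 0.296 CPM, a log2 difference of 1.44 ± 0.77 (SE, edgeR adjusted p = 0.924). Its 95% interval ran from -0.24 to 3.11.

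In zone 3, 0 of the 5 genes were called, against 0.00418% of genes (1 gene). There hsp101 had 12.1 ± 12.9 CPM under UV-B (SD, n = 2) and 16.2 ± 12.1 in control (n = 3), and hsp18f had 10.9 ± 11.2 and 11.6 ± 6.54 CPM. The log2 differences of the 5 genes were between -0.60 (hsp26) and -0.01 (hsp18f), and all 5 intervals spanned 0. The UV-B effect in zone 3 minus that in zone 2 was called for 0 of the 5 genes and 0% of all genes (454 at an unadjusted p under 0.05, and 0 by DESeq2 and by limma-voom). The widest value was that of hsp26, at -2.04 ± 1.31 (edgeR adjusted p = 0.9999).

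No gene of any other chaperone list was called for UV-B over the zones or in zones 2 or 3. Over the zones, the median log2 difference was -0.94 for the HSP70 family, -0.76 for the HSP90 family, -0.44 for chaperonins, 0.13 for small heat shock proteins and 0.01 for heat shock factors, against -0.01 for all genes. The clock genes had a median of 0.90. As with the 5 genes, these medians take in the 3 libraries of UV-B replicate 3 among 6 of UV-B and the 2 of control replicate 1 among 8 of control.

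**Figure D4:**
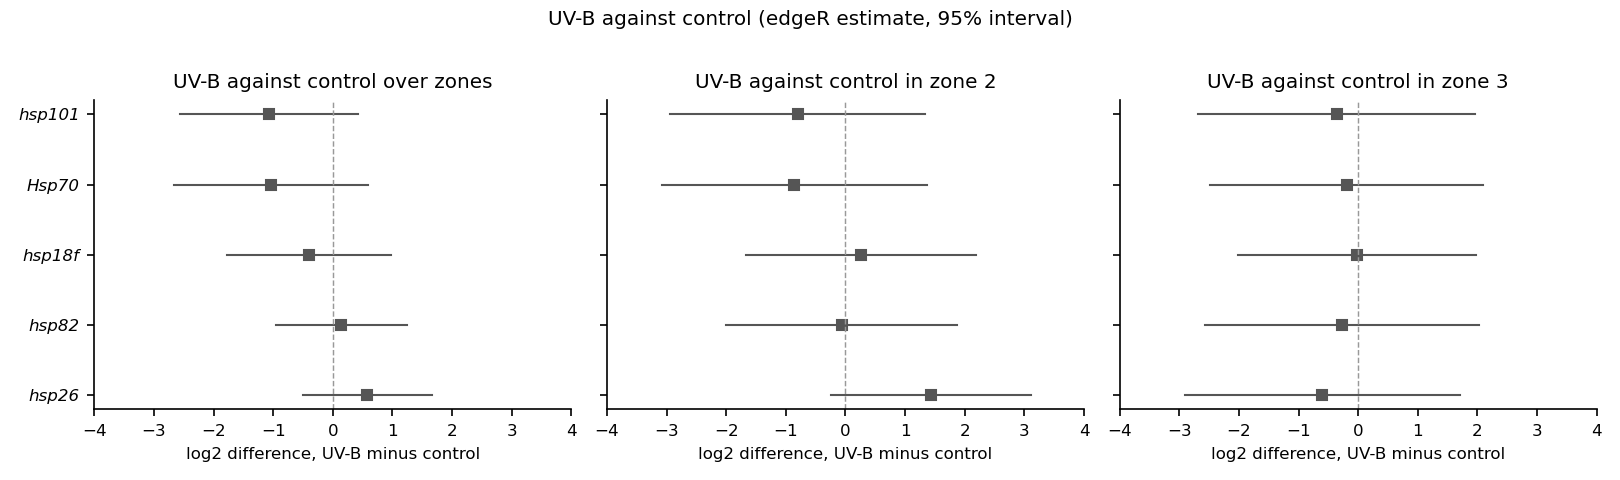
Log2 difference of each gene between UV-B and control leaves (edgeR estimate with 95% interval), over the 3 zones and within zones 2 and 3. The fit over the zones took libraries of 1 set as independent, so its intervals are likely too narrow. Every interval spans 0; hsp26 in zone 2 has the highest estimate, 1.44.

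For hsp101 and Hsp70 the 14 libraries fell into a low and a high cluster, so that correlations over all of them are not given. Within the 9 libraries outside control replicate 1 and UV-B replicate 3, a choice made after the values were seen, hsp101 and Hsp70 varied together (Pearson r = 0.928 and Spearman rho = 0.733 on log2(CPM + 1)). Over the same 9 libraries, r was 0.478 for hsp101 with hsp18f (rho = 0.183) and 0.628 for Hsp70 with hsp18f (rho = 0.317). These libraries share zones and sets, and the values are descriptions.

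Genes whose pattern was most like the mean pattern of the 5 were ranked by Pearson correlation over the 14 libraries, both clusters included, among 13820 genes. In this order hsp101 was at rank 4, Hsp70 at 58 and hsp18f at 81, each being part of that mean. The mean gave all 5 genes equal weight, so the counting error of hsp82 and hsp26 enters it. Those genes were below the mean of 10 CPM needed for a rank. The gene at rank 1 was GRMZM2G043147 (r = 0.942), with 14.1 CPM on average in control replicate 1 and 15.4 in UV-B replicate 3, against 45.1 to 62.3 CPM in the other sets. Among the first 10, none other than hsp101 carries an informative symbol. On the chaperone lists, HSP90-2 was at rank 16 (r = 0.902), hsp70-5 at 23 (0.884) and a CPN60I gene at 40 (0.856). Further down were hsp22 at 49 (0.847) and HSP90-1 at 61 (0.833). Nearly all ranks between these were held by genes outside the lists. Other listed genes ranked far lower, among them hsp70-4 at 238 (0.705), CHL-CPN10 at 7050 (-0.030), Hsf01 at 7912 (-0.119) and PDIL1-1 at 12018 (-0.485). At the other end were ccp1, a cysteine protease gene (r = -0.922), and thi1-2, a gene of thiamine synthesis (r = -0.916).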

How the data were processed

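The authors deposited 1 table that lists, per the file headers, read counts (total and unique) and RPKM of each transcript. No source used here gives the aligner or the build. Per the labels' protocols, RNA was sequenced as stranded mRNA libraries in paired-end runs of 25 cycles, and replicates are biological. A further 21 value columns belong to 3 libraries without a matching sample label and stayed out. Of each library used, 45.3% to 47.9% of reads were unique to 1 transcript. The RPKM values deposited by the authors served only to compare levels between genes.

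Total counts were summed to genes. CPM use the library total without further scaling. The test was that of edgeR 4.0.16 under R 4.3.3 (filterByExpr, TMM scaling, two-sided quasi-likelihood F test, Benjamini-Hochberg adjustment over 23899 genes, threshold 0.05), over 14 libraries. Zones and UV-B within a zone were contrasts of a model with 6 groups, UV-B over zones came from a model of zone and treatment, and replicate sets from a model of zone and set. Whether replicate numbers pair libraries was checked on deviations from group means. All 9 pairs of libraries of the same treatment and number correlated (0.114 to 0.680), so these were taken as paired. Pairs of unlike number were not computed for comparison, and the 9 values share libraries and are not independent. The 4 pairs across treatments gave -0.137, 0.069, 0.504 and 0.547, which does not settle whether numbers pair across treatments. These pairs share the replicate number but not the last number of the title. Control replicate 3 and UV-B replicate 1, which share the title number 7, were not compared. In the main fits libraries were not paired across treatments.

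The genes, the lists and the comparison of replicate sets were chosen with earlier results of these data known. Lists were filled by symbols and synonyms in RefSeq (assembly Zm-B73-REFERENCE-NAM-5.0), and up to 4 other genes per list are named, by highest mean CPM. From larger lists, genes outside this rule are said to be so. Alternatives were DESeq2 1.42.0 and its size factors, limma-voom (limma 3.58.1), other filters, all 15 libraries, unique reads, a replicate block, and leaving out each library. Leaving out each replicate set was added after seeing the data. Promoter and protein sequences were not used here.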

Additional observations from a re-analysis of the deposited data

How the results depend on the processing

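Of 1237 values of single genes under 29 other settings, 1126 kept their direction and side of the threshold, 6 gained a call, 7 lost one and 98 changed sign, all 98 with no call before or after (lowest adjusted p of these 0.574). The 6 gains came with the replicate block (control zones 3 and 2 against 1), with which 3 of the 5 heat shock genes were called in each of these comparisons in place of 0. The block moved the count of genes from 1990 to 4711 between control zones 2 and 1 and from 3184 to 7031 between zones 3 and 2. Of the genes called without the block, 1977 and 3177 were also called with it, as were 12211 of 12263 between zones 3 and 1. Over UV-B, blocking by replicate number gave 45 genes in place of 7 and none of the 5, and it changed no other call of theirs.

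Counts of all genes depended on the method. Between control zones 2 and 1, DESeq2 called 3011 and unique reads 822, and between zones 3 and 2 unique reads called 1525. Unique reads shifted the median log2 change of all genes to -0.32 between zones 3 and 1 and to -0.21 between zones 3 and 2. For UV-B in zone 2, DESeq2 called 2 genes and limma-voom 1, and in zone 3 DESeq2 called 4, limma-voom 0 and unique reads 0. For UV-B over the zones the count was 14 without a filter, 66 by DESeq2, 4 by limma-voom, 14 with all 15 libraries, 4 with unique reads and 1 by limma-voom with the correlation within sets (0.472). Among control sets, 3395 genes were called without a filter and 3999 by limma-voom. The cause of these shifts was not tested. A filter of 1 CPM in 3 libraries left 4 of the 5 genes.

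Leaving out 1 library or 1 replicate set gave 7853 to 12947 genes between control zones 3 and 1, 203 to 2605 between zones 2 and 1, and 1 to 4078 between zones 3 and 2. The lowest of these counts came without control replicate 3, control replicate 2 and control replicate 3. For UV-B the ranges were 0 to 4 genes in zone 2, 0 to 2 in zone 3 and 2 to 30 over the zones, the last without control replicate 1. For replicate sets they were 721 (without control replicate 3) to 3331 (without UV-B zone 3 replicate 3) in control and 332 (without UV-B replicate 3) to 5043 under UV-B. Of the 5 genes, 0 to 3 were called among control sets, 0 without control replicate 1, and 1 to 3 among UV-B sets, 1 without UV-B replicate 3. Depth limits hsp82 and hsp26, for which 3 reads equal 0.156 to 1.79 CPM.

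Log2 values that changed sign were these. With limma-voom, Hsp70 was 0.52 and hsp82 -0.00642 in the comparisons of control zone 1 with zones 2 and 3, hsp82 was -0.28 between zones 3 and 2, and hsp18f had a UV-B effect of -0.35 in zone 2, with 0.12 as the zone 3 minus zone 2 difference. With unique reads, hsp26 was -0.029 between zones 3 and 1 and -0.069 between zones 3 and 2, hsp82 was -0.077 between zones 3 and 2, and hsp18f was 0.00971 for UV-B in zone 3. Without a filter hsp82 was -0.0059 between zones 3 and 2. With the replicate block, hsp82 and hsp26 were -0.046 and -0.015 between zones 2 and 1, and hsp101 and Hsp70 were both -0.38 for the UV-B effect in zone 3 minus zone 2. Leaving out 1 library or set, values ran between zones 3 and 1 from -0.74 to 0.58 for hsp82 and from -0.11 to 0.68 for hsp26. Between zones 2 and 1 they ran from -0.15 to 0.63 for hsp82, from -0.76 to 0.23 for Hsp70 and from -0.98 to 1.01 for hsp26. Between zones 3 and 2 they ran from -1.22 to 0.062 for hsp101, from -1.16 to 0.52 for hsp82, from -0.43 to 0.995 for hsp26 and from -0.23 to 0.77 for hsp18f. For UV-B in zone 2 they ran from -0.29 to 0.27 for hsp82 and from -0.88 to 0.76 for hsp18f. In zone 3 they ran from -2.65 to 0.35 for hsp101, from -6.05 to 0.67 for hsp82, from -1.70 to 0.51 for Hsp70 and from -2.14 to 0.69 for hsp18f. For the UV-B effect in zone 3 minus zone 2 they ran from -1.84 to 1.16 for hsp101, from -5.98 to 0.96 for hsp82, from -0.83 to 1.37 for Hsp70 and from -2.60 to 0.86 for hsp18f. Over the zones they ran from -0.051 to 0.42 for hsp82, from -1.96 to 0.0077 for Hsp70 and from -1.002 to 0.73 for hsp18f. The values of hsp82 near -6 set control against 1 UV-B library with 0 reads and are no bound.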

Other observations

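Antioxidant enzymes, which remove hydrogen peroxide and superoxide, were measured beside the chaperones. Of 10 tested, 2 were called among control sets (9.26% of all genes), both lowest in replicate 1, and 8 among UV-B sets (18.5% of all genes), all 8 lowest in replicate 3 and highest in replicate 1. The cytosolic ascorbate peroxidase gene apx2 was called in both, with ranges of 3.13-fold in control and 3.47-fold under UV-B (edgeR adjusted p = 9.07e-05 and 3.11e-05). It had 105, 320 and 226 CPM in replicates 1, 2 and 3 of control zone 1 and 92.0 CPM in UV-B zone 1 replicate 3. The superoxide dismutase gene sod9, the most abundant of the list, had 350, 545 and 376 CPM in replicates 1, 2 and 3 of control zone 1. Between control zones 3 and 1, with the replicate sets as a block, 8 of 10 antioxidant genes were higher and 0 lower, where 30.6% of all genes were called higher and 32.0% lower, with a median log2 difference of 0.61 against -0.02 for all genes. None was called for UV-B over the zones.

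Some genes showed the split of replicate sets in the opposite direction. The thiamine synthesis gene thi1-2 averaged 1488 CPM in control replicate 1 and 1368 in UV-B replicate 3, against 13.1 to 19.1 CPM in the other 4 sets. For the cysteine protease gene ccp1 the averages were 423 and 570 CPM against 95.9 to 101.9 CPM. Over all genes, 1161 (4.86% of those tested) were called both among control sets and among UV-B sets. Of these, 382 were lowest in control replicate 1 and in UV-B replicate 3, and 251 were highest in both. The sets of a treatment differ in the zones they hold, which the model takes into account as additive terms.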
